A study of Mus musculus with 4 samples.

Results

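Single-cell RNA counts were compared between 2 libraries of control Tbx1-lineage cells from mouse embryos, 1 taken at E8.5 and 1 at E9.5. The members were all deposited barcodes with 1000 or more detected genes and at most 10% of their unique molecular identifiers (UMIs, each standing for 1 captured transcript) from mitochondrially encoded genes. This left 1396 of 1434 barcodes at E8.5 and 5446 of 5453 at E9.5, so 6842 of the 14129 cells that met the same rule in the 4 libraries of the series.

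Both control groups (Ctrl) carried Tbx1Cre/+ and a Rosa26-GFPflox/+ reporter on a Swiss Webster background. Because Cre sits in the Tbx1 locus, the controls had 1 working copy of Tbx1, and a cell stayed GFP-positive once it or an ancestor had expressed Cre. Embryos of both sexes were pooled within a stage, the upper part of the body was dissected at E8.5 and the pharyngeal apparatus with the heart and the back at E9.5, and living GFP-positive cells were sorted after trypsin digestion. The dissection, the age and the library therefore cannot be told apart. The other 2 libraries, Tbx1Cre/flox with the same reporter at the same stages (cKO, no working Tbx1 copy in cells with Cre), are given beside the Ctrl values only to show how far a Ctrl difference was also seen between libraries that did not enter it.

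Tbx1 encodes a T-box transcription factor of the pharyngeal mesoderm, endoderm and otic region, and human TBX1 lies in the region deleted in 22q11.2 deletion syndrome. Cardiopharyngeal mesoderm gives rise to the second heart field, which adds muscle to both poles of the heart tube, and to the branchiomeric muscles of the face and neck. Between the stages compared the heart tube loops, the pharyngeal arches are added one after another, neural crest fills the arches and blood begins to circulate. Early embryonic cells are also known for a high rate of glycolysis and for Lin28a, an RNA-binding protein that blocks maturation of let-7 miRNAs.

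The E8.5 library held 25341821 UMIs in its kept cells and the E9.5 library 94785328, with medians of 17511 and 16673.5 UMIs a cell and 3701.5 and 3994 detected genes. Cytosolic ribosomal protein genes took 30.2% of UMIs at E8.5 and 24.8% at E9.5, and mitochondrially encoded genes 1.35% and 2.19%. The 2 libraries had 10 barcodes in common, of which 9 were kept in both, and 2 cells at E8.5 and 10 at E9.5 had over 3 times their library's median UMIs. Tbx1 itself, the gene whose Cre marked the cells, was at 85.8 UPM (the UMIs of a gene per 1000000 UMIs of all genes) at E8.5 and 103 at E9.5. RNA of red cells differed: the summed level of the red cell list was 28.5 UPM at E8.5 and 106 at E9.5, with the embryonic globin Hbb-y at 0.197 and 28.6 UPM, while the white cell list summed to 2.49 and 2.8 UPM. Genes induced by tissue dissociation summed to 3600 and 5030.0 UPM, and the immediate early gene Jun was at 17.9 and 47.6. Xist was at 851 and 403 UPM (596 and 668 in the MLP-like cells described below) and the Y-linked Ddx3y at 10.9 and 16.9. The part of these differences in the results was not tested.

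With 1 library a stage no test between stages exists. Each gene is given as its UPM in both libraries and as the log2 ratio of E9.5 to E8.5, with an exact conditional binomial 95% interval that covers counting error only. Of 8878 genes with a mean of 5 UPM or more, called counted genes here, 656 (7.39%) were at least 2-fold higher at E9.5 and 150 (1.69%) at least 2-fold lower. The median log2 ratio of the counted genes was 0.31, so that list medians below are to be read against 0.31 and not against 0. Counts of list members past 2-fold are likewise to be read against the 7.39% higher and 1.69% lower of all counted genes. Under trimmed-mean (TMM) scaling that median moved to -0.01, and 274 genes were 2-fold higher against 319 lower, which put 46.2% of the calls on the higher side where scaling to the total put 81.4%. For scale, cKO E8.5 and Ctrl E8.5 share a stage label but differ in genotype, library and, by the authors' somite counts, slightly in age. They gave 88 of 8487 counted genes (1.04%) 2-fold higher in cKO and 15 (0.177%) 2-fold lower. Counted genes lay between -0.83 and 1.44 on the log2 scale (the central 95% of genes) for the Ctrl stages, and between -0.47 and 0.71 for the 2 E8.5 libraries.

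The cell mix differed most in epithelium. Cells of the 4 libraries were clustered together after integration, and clusters were called after markers of pharyngeal cell types. Epithelial-like cells were 16 of 1396 (1.15%) at E8.5 and 749 of 5446 (13.8%) at E9.5, a difference of 12.6 percentage points (95% interval 11.5 to 13.6, counting error only). They fell into 3 clusters, led by Vgll2 and Pax1 (13 cells at E8.5 and 415 at E9.5), by Foxi2 and Sostdc1 (3 and 266 cells) and by Dlx5 and Spp1 (0 and 68 cells).

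Among mesodermal classes, cells called multilineage progenitor (MLP)-like from markers that include Aplnr and Nrg1 were 7.16% of the E8.5 library and 2.24% of the E9.5 library, a difference of -4.92 points (-6.44 to -3.61). Branchiomeric muscle progenitor (BrM)-like cells with Tcf21, Lhx2 and Msc were 11.2% and 9.82%, and cells of the anterior second heart field and somatic mesoderm (aSHF/SoM-like) 5.44% and 4.48%. The interval of the BrM-like difference, -3.35 to 0.332 points, held 0. Mesenchyme-like cells were 34.9% and 37.4%, posterior second heart field (pSHF)-like cells 2.15% and 2.85%, and cardiomyocyte (CM)-like cells 1.15% and 2.0%. Endothelial-like cells had nearly equal shares, 7.59% and 7.71%, but not the same clusters: the cluster led by the mature endothelial genes Cldn5 and Emcn had 32 cells at E8.5 and 347 at E9.5, and the one led by Etv2, Lmo2 and Tal1 had 74 and 73. Neural crest-like cells were 2.15% and 0.496%, neural-like cells 2.08% and 1.91%, and cells of clusters left unnamed 25.0% and 17.4%. Shares of a library depend on what was dissected, which differed between the stages.

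**Figure D1:**
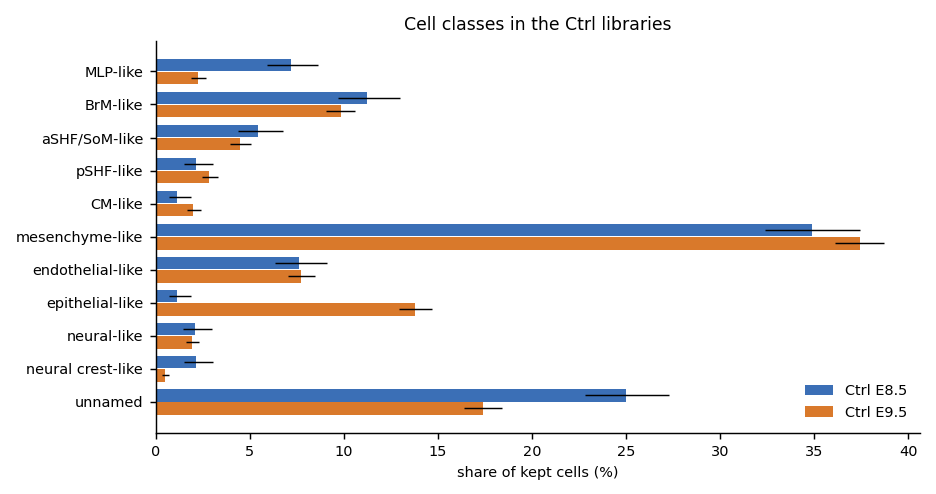
Share of kept cells (percent, x axis from 0) in each class for Ctrl E8.5 and Ctrl E9.5, with Wilson 95% intervals as error bars (counting error only). Epithelial-like cells stand at 1.15% and 13.8%, MLP-like cells at 7.16% and 2.24%.

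Since the mix differed, each ratio was also computed at the cell mix of Ctrl E8.5, with the UPM of 18 clusters that had 20 or more cells in both libraries weighted by their part of the E8.5 UMIs. Those clusters held 96.6% of the E8.5 cells and 83.2% of the E9.5 cells. All 3 epithelial-like clusters, the CM-like cluster (16 and 109 cells), a neural-like cluster (0 and 38) and an unnamed one (15 and 17) fell short of 20 cells and were left out. For genes of those cells the value at the mix therefore describes their low level in other cells and says nothing of the cells that use them. At that mix 585 of the 8878 genes (6.59%) were 2-fold higher and 179 (2.02%) 2-fold lower. Of the 656 genes higher over all cells, 530 (80.8%) were still 2-fold higher, and of the 150 lower genes 140 (93.3%) were still 2-fold lower. The lists whose medians moved most were those of red cells (6.16 over all cells, 0.98 at the mix), epithelium (2.85 and 1.38) and contractile genes (0.30 and -0.60). The mix values of each of these lists lack the clusters left out, the epithelial-like and CM-like ones among them. Globins near 0 at E8.5, such as Hbb-y, reached the mean of 5 UPM only through E9.5. Their place on the higher side was therefore set by that filter.

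**Figure D2:**
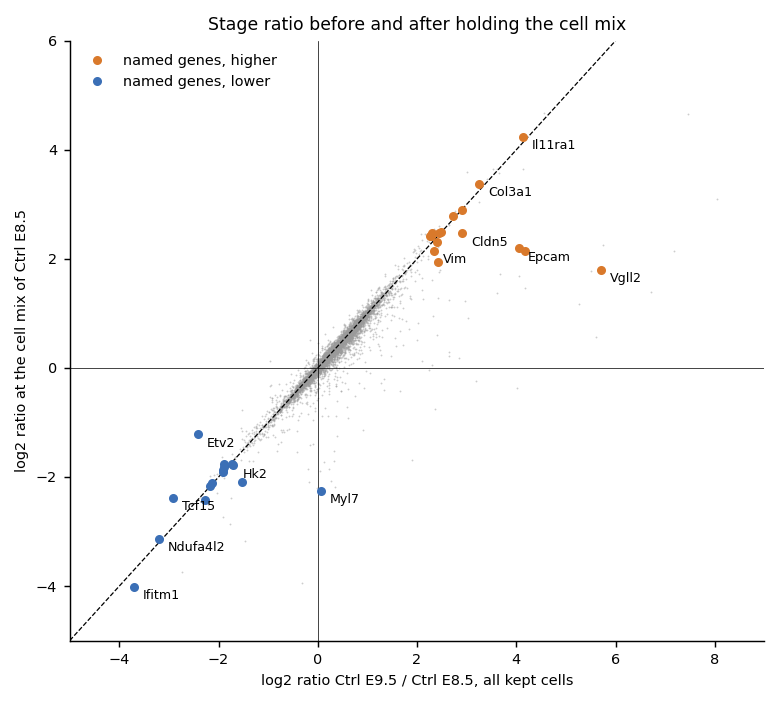
Each point is 1 of the 8878 counted genes, with the log2 ratio of Ctrl E9.5 to Ctrl E8.5 over all cells on the x axis and the same ratio at the cell mix of E8.5 on the y axis. The dashed diagonal marks equality. The y values leave out the epithelial-like and CM-like clusters. Vgll2 (5.70 and 1.80) lies far under the diagonal, Col3a1 (3.25 and 3.38) lies on it, and Myl7 (0.06 and -2.25) lies under it near 0 on the x axis.

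Epithelial genes led the higher side over all cells. Epcam, an adhesion molecule of epithelial cells, was at 4.18 UPM in the earlier and 69.3 in the later library, with a log2 ratio of 4.05 (3.77 to 4.34). Cldn6, a tight junction protein, was at 3.75 and 67.6 UPM, log2 4.17 (3.88 to 4.48), and Vgll2, a TEAD cofactor of pharyngeal pouches and muscle, at 1.34 and 69.6 UPM, log2 5.70 (5.21 to 6.23). In the E9.5 library 94.6% of Epcam UMIs, 95.9% of Cldn6 UMIs and 98.2% of Vgll2 UMIs were in epithelial-like cells. Epcam and Cldn6 were among the markers that named this class and Vgll2 led a cluster of it, so these shares are partly built in. At the E8.5 mix, which holds no epithelial-like cluster, Epcam was at only 0.809 and 3.7 UPM, so no ratio within epithelial-like cells is given.

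Of the 40 epithelial genes listed, 17 were counted, 14 were 2-fold higher and 0 lower, with a median of 2.85 over all cells. Genes near 0 at E8.5 reached the mean of 5 UPM only through E9.5. Their calls on the higher side were therefore set by that filter. Of the 23 members under that mean, 22 also had more UPM at E9.5. The list included genes of separate epithelia. Pax1, a transcription factor of the pharyngeal pouches, was at 0.395 and 18.0 UPM (log2 5.51), Foxi2, of the ectoderm of the arches, at 0.237 and 12.7 UPM (5.75), and Sostdc1, a secreted inhibitor of BMP and WNT signals, at 0.079 and 13.9 UPM (7.46 from 2 UMIs at E8.5, interval 5.61 to 10.51). Foxe1, of the thyroid primordium and pharyngeal endoderm, had 0 UMIs at E8.5 and 601 at E9.5, which is at least 53.6-fold higher against a floor of 3 UMIs at E8.5. The keratins of simple epithelia were closer: Krt8 was at 28.1 and 52.9 UPM (log2 0.92) and Krt18 at 34.9 and 88.1 (1.33). After every cell was thinned to 5000 UMIs, 1.54% of E8.5 cells (0.954% to 2.34%) and 13.2% of E9.5 cells (12.3% to 14.1%) had an Epcam UMI. In endothelial-like cells, which should lack Epcam, the shares were 0 of 104, which allows up to 2.88%, and 2.39%, so the E8.5 share lay within what that background allows and the E9.5 share above it. Without thinning the shares were 2.58% and 17.1%.

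**Figure D3:**
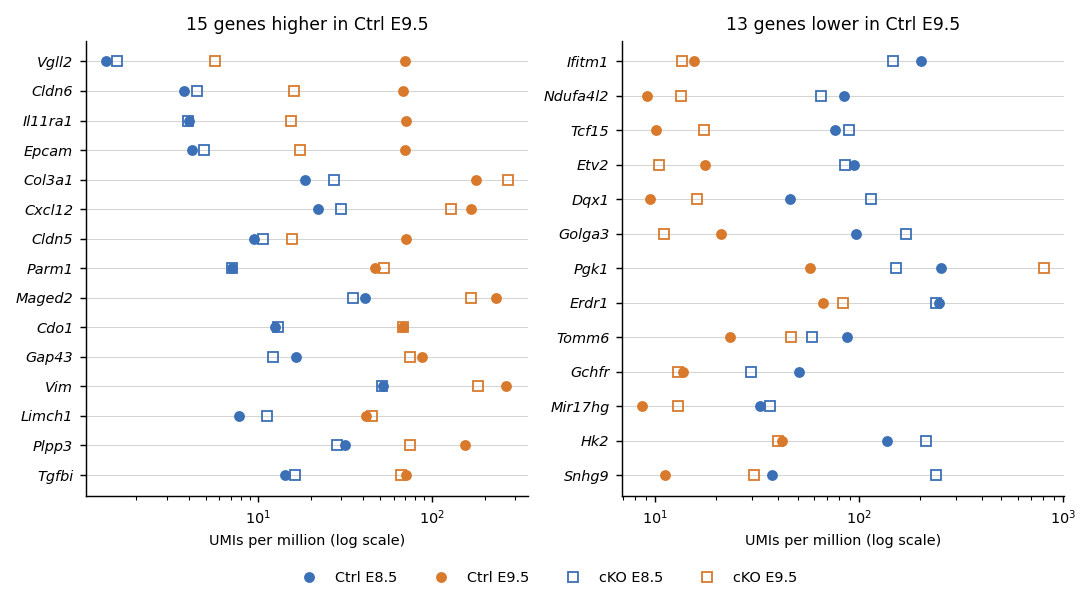
UPM on a log axis (x) of the 15 genes highest and 13 of the 15 lowest in Ctrl E9.5 against Ctrl E8.5 by the interval bound nearest 0, with 1 point for each of the 4 libraries (filled circles Ctrl, open squares cKO, blue E8.5, orange E9.5). Vgll2, Cldn6 and Epcam are lower in cKO E9.5 (5.69, 16.2 and 17.5 UPM) than in Ctrl E9.5 (69.6, 67.6 and 69.3), Ifitm1 is low in both E9.5 libraries, and Pgk1 is at 57.6 UPM at E9.5 in Ctrl and at 811 in cKO.

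Among genes of connective tissue, Col3a1, Cxcl12 and Vim were higher at E9.5 over all cells and at the E8.5 mix. Col3a1, a fibrillar collagen, was at 18.6 and 178 UPM, log2 3.25 (3.12 to 3.39) over all cells, 3.38 at the E8.5 mix and 3.33 between the cKO stages. Cxcl12, a chemokine of mesenchyme, was at 22.1 and 166 UPM (log2 2.91, and 2.90 at the mix), and Vim, the intermediate filament of mesenchymal cells, at 52.2 and 264 UPM (2.34 and 2.15). All of these were 2-fold higher in each of the 5 classes with 50 or more cells at both stages (MLP-like, BrM-like, aSHF/SoM-like, mesenchyme-like and endothelial-like). The log2 ratios ranged over those classes from 1.89 to 3.57 for Col3a1, from 1.55 to 3.9 for Cxcl12 and from 1.15 to 2.99 for Vim.

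Of 34 genes listed for fibrillar collagens and matrix, 27 were counted, 10 (37.0%) were 2-fold higher and 0 lower. The shares of all counted genes were 7.39% and 1.69%. The median was 0.85 over all cells, 1.02 at the E8.5 mix and 0.52 between the cKO stages. Col1a2, a chain of type I collagen, was at 8.84 and 43.6 UPM (log2 2.30), its partner Col1a1 at 4.81 and 14.1 (1.55), and Col9a1, a collagen of early embryonic matrix and cartilage, at 22.2 and 107 (2.27). Tgfbi, a secreted matrix protein induced by TGF-beta, was at 14.4 and 70.7 UPM (2.30), and Sparc, a collagen-binding glycoprotein, at 52.8 and 184 (1.80). The early matrix was not higher: Fn1, fibronectin, was at 177 and 154 UPM (-0.20), and Hapln1, which links hyaluronan to proteoglycans, at 94.2 and 55.1 (-0.77). Between the cKO stages Fn1 was at 189 and 69.5 UPM and Hapln1 at 109 and 24.5.

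Of 43 mesenchymal and skeletal transcription factors, 35 were counted, 10 were 2-fold higher and 1 lower, with a median of 0.52, or 0.21 above that of all counted genes. The list did not lean one way in every class: 7 of 29 counted genes were higher and 1 lower in mesenchyme-like cells (median 0.65), 5 of 26 were higher and 9 lower in BrM-like cells (-0.26), and 0 of 21 were higher and 9 lower in endothelial-like cells (-0.91). Nr2f1, a nuclear receptor of arch and head mesenchyme, was at 15.7 and 67.4 UPM (log2 2.10), Pax9, of pouches and sclerotome, at 6.87 and 29.2 (2.09), and Foxf2, a hedgehog target in mesenchyme, at 2.64 and 12.5 (2.25). The 1 lower gene was Tcf15, the bHLH factor paraxis of somites, at 76.2 and 10.2 UPM, log2 -2.91 (-3.02 to -2.80) over all cells and -2.38 at the E8.5 mix. In cKO cells Tcf15 was at 88.9 and 17.5 UPM, and it was 2-fold lower at E9.5 in each of the 5 Ctrl classes (-5.0 to -1.77). Hoxa2, a patterning gene of the second arch, was at 12.2 and 28.5 UPM (1.23). None of the 19 Hox genes of groups 4 to 9 was counted.

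Endothelial genes lay on both sides. Of 31 endothelial genes, 21 were counted, 7 (33.3%) were 2-fold higher and 2 (9.52%) lower, with a median of 0.81. The shares of all counted genes were 7.39% and 1.69%. Cldn5, an endothelial tight junction protein, was at 9.43 and 71.1 UPM, log2 2.91 (2.73 to 3.11), with 98.1% of its E9.5 UMIs in endothelial-like cells. Cldn5 was among the markers that named that class, so this share is partly built in. Cdh5, VE-cadherin, was at 3.55 and 19 UPM (2.42), Cd34 at 5.52 and 30 (2.44) and Emcn at 13.2 and 39.8 (1.59). Kdr, the VEGF receptor already present on angioblasts, was at 42.5 and 24.9 UPM (-0.77), and Etv2, the ETS factor that starts the blood and endothelial programme, at 94.2 and 17.6, log2 -2.42 (-2.51 to -2.33).

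Etv2 was not restricted to endothelial-like cells at E8.5. It was at 600 UPM in endothelial-like, 152 in BrM-like and 22.6 in mesenchyme-like cells at E8.5, and at 151, 12.2 and 1.65 UPM in the same classes at E9.5. MLP-like cells went the other way, with 13.8 and 26.1 UPM. After thinning to 5000 UMIs, 16.7% of E8.5 cells and 3.53% of E9.5 cells had an Etv2 UMI, against 25.3% and 3.2% of BrM-like cells, so BrM-like cells, the class chosen as one that should lack the gene, held it at E8.5 and gave no background for Etv2. Cdh5, by contrast, was in 0 of 154 and 0 of 532 thinned BrM-like cells, which allow 1.95% and 0.564%, and in 1.76% and 4.58% of all thinned cells. Without thinning Etv2 was in 33.9% and 7.62% of cells and Cdh5 in 2.87% and 7.23%.

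The cKO values are set beside these. Between the cKO stages Cldn5 was at 10.6 and 15.6 UPM (log2 0.56), Cdh5 at 3.86 and 3.29 (-0.23) and Kdr at 50.3 and 8.97 (-2.49), and the endothelial list had 1 counted gene 2-fold higher and 9 lower of 18. Etv2 was lower in both genotypes, at 85.4 and 10.5 UPM in the cKO libraries.

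Several regulators of branchiomeric muscle were higher at E9.5. Of 22 listed, 13 were counted, 4 (30.8%) were 2-fold higher and 0 lower, against 7.39% and 1.69% of all counted genes. The median was 0.65 over all cells, 0.33 at the E8.5 mix and -0.06 between the cKO stages. Msc, musculin, a bHLH repressor of pharyngeal arch muscle precursors, was at 3.39 and 10.7 UPM (log2 1.66), and Lhx2, a LIM homeobox factor of the same cells, at 7.26 and 16 (1.14). The homeobox genes Tlx1 and Hlx were at 4.66 and 15 UPM (1.69) and at 3.67 and 16.8 UPM (2.20). Within BrM-like cells Msc was at 20.3 and 90.7 UPM, Lhx2 at 32.0 and 128, and Tlx1 at 17.2 and 78.9. These genes were among the markers that named the class from the cells of both stages pooled, so their levels in it are partly built in. Myf5, a factor that commits cells to muscle, had 6 UMIs at E8.5 and 190 at E9.5 (0.237 and 2.0 UPM), too few to be counted. In cKO cells Msc was also higher at E9.5, at 1.6 and 9.45 UPM, whereas Lhx2 was at 3.75 and 4.0 and Tlx1 at 3.43 and 3.84.

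Heart field regulators had no common direction in Ctrl cells beyond that of all genes, with a median of 0.31, which TMM scaling takes to about 0. Of 29 listed, 19 were counted, 3 (15.8%) were 2-fold higher and 1 (5.26%) lower, against 7.39% and 1.69% of all counted genes. Isl1, the LIM homeobox factor of second heart field progenitors, was at 36.4 and 64.3 UPM (log2 0.82), and Hopx, a cofactor of early cardiac and pharyngeal progenitors, at 89.8 and 31.0 (-1.53, and -0.78 at the E8.5 mix). Hopx was also a leading gene of the endothelial-like cluster with Etv2, Lmo2 and Tal1. That cluster was 5.3% of E8.5 and 1.34% of E9.5 cells, and its part in the Hopx ratio was not tested. Between the cKO stages the same list had 2 genes 2-fold higher and 6 lower, Isl1 was at 40.3 and 33.4 UPM, and Hopx at 115 and 25.5.

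Contractile genes were read over all cells and, through the mix, outside CM-like cells. Myl7, the atrial myosin light chain, was at 192 and 201 UPM over all cells (log2 0.06), and at 91.2 and 19.2 UPM at the E8.5 mix (-2.25), which leaves out the CM-like cluster. Its log2 ratio lay between -2.93 and -2.0 in the 5 classes compared, none of them cardiac muscle, with 57.0 and 9.79 UPM in endothelial-like cells, which should lack it. Low expression and free RNA from lysed heart muscle cells cannot be told apart in these values. CM-like cells held 53.0% of Myl7 UMIs at E8.5 and 88.9% at E9.5, and Myl7 was among the markers that named that class. Of 33 sarcomere and contractile genes, 22 were counted, with 2 (9.09%) higher and 0 lower over all cells (median 0.30, about 0 under TMM scaling). The share of higher genes was near the 7.39% of all counted genes. At the E8.5 mix, outside CM-like cells, 1 was higher and 8 were lower (median -0.60). Tnnt2, cardiac troponin T, was at 54.9 and 48.7 UPM (-0.17, and -2.09 at the mix), and Actc1, cardiac actin, at 68.4 and 88.9 (0.38, and -1.25 at the mix). Thinned to 5000 UMIs, Tnnt2 was seen in 7.25% of E8.5 cells and in 7.69% of endothelial-like cells, which should lack it. The E8.5 share was therefore not above that class, and low expression and free RNA cannot be told apart here either. At E9.5 the 2 shares were 3.67% and 0.957%, and without thinning the shares of all cells were 19% and 6.3%. Des, desmin, which is not restricted to heart, was higher over all cells and at the mix (19.1 and 55.6 UPM, log2 1.55 and 1.89).

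**Figure D4:**
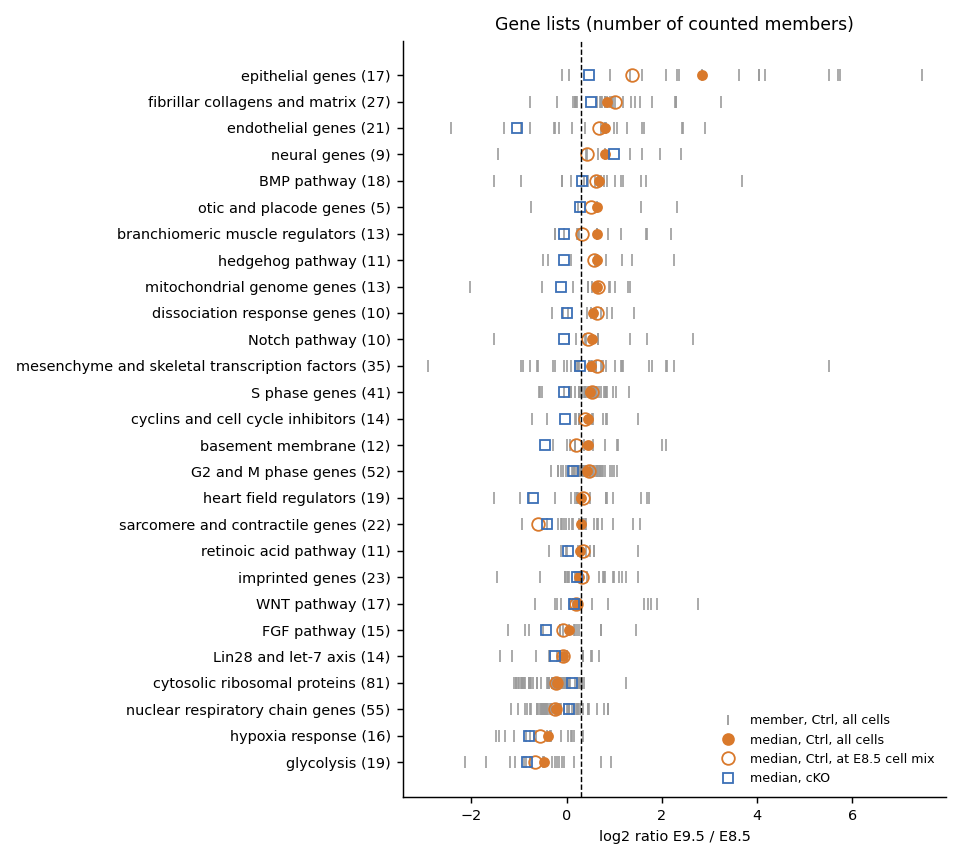
Log2 ratio of E9.5 to E8.5 (x axis) for gene lists with 5 or more counted members, with a tick for each counted member in Ctrl and markers for the list median over all Ctrl cells, at the E8.5 cell mix and between the cKO stages. The dashed line is the median of all counted Ctrl genes, 0.31, and the mix leaves out the epithelial-like and CM-like clusters. Epithelial genes (2.85) and matrix genes (0.85) lie to its right and glycolysis (-0.47) and hypoxia response (-0.38) to its left.

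Signalling lists were spread around the median of all genes. Of 28 BMP pathway genes 18 were counted, 6 (33.3%) were 2-fold higher and 1 (5.56%) lower (median 0.69). The shares of all counted genes were 7.39% and 1.69%. Bmp4, a ligand of the arches and outflow region, was at 15.5 and 45.7 UPM (log2 1.56), and the target Id4 at 0.789 and 10.1 (3.68). The 1 lower gene was Fst, follistatin, a secreted activin and BMP antagonist, at 408 and 142 UPM, log2 -1.52 (-1.56 to -1.48), and at 237 and 73.4 in cKO cells. In the hedgehog list 3 of 11 counted genes were higher, among them Gas1, a co-receptor of sonic hedgehog, at 31.7 and 82.4 UPM (1.38) and Gli1, the usual reporter of the pathway, at 3.71 and 8.36 (1.17).

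In the WNT list 5 of 17 counted genes (29.4%) were 2-fold higher and 0 lower, with a median of 0.23 that TMM scaling takes below 0. Sfrp1, a secreted WNT inhibitor, was at 71.4 and 219 UPM (log2 1.62), and Rspo3, which amplifies WNT signals, at 1.54 and 10.5 (2.77). The FGF list had 15 counted genes, 1 higher and 1 lower (6.67% each), with a median of 0.06, 0.25 below that of all genes. The share of higher genes was near the 7.39% of all counted genes, of which 1.69% were lower. Its lower gene was Spry2, a feedback inhibitor that FGF signals induce, at 54.2 and 23.1 UPM (-1.23). Fgf8, the ligand downstream of Tbx1 in the pharynx, was at 49.4 and 58.1 UPM over all cells (0.23) and in BrM-like cells at 92.5 and 15.6 UPM (-2.57). Its level in epithelial-like cells, of which E8.5 had 16, was not compared. Notch2, a receptor, was at 43.8 and 15.2 UPM (-1.53), while Hey1, a Notch target in vessels and heart, was at 18.0 and 45.3 (1.33). Of 11 counted retinoic acid genes only Crabp2, a carrier of retinoic acid to the nucleus, was 2-fold higher (89.5 and 254 UPM, 1.51). That share, 9.09%, was also near that of all counted genes.

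Glycolysis genes lay below the median of all genes. Of 20 listed, 19 were counted, 4 were 2-fold lower and 0 higher, and the median was -0.47, or 0.78 below that of all genes. Hk2, the hexokinase that takes glucose into the pathway, was at 137 and 42.1 UPM, log2 -1.70 (-1.77 to -1.64), and at 212 and 40.3 UPM in the cKO libraries. Pfkp, a phosphofructokinase, was at 11.9 and 5.62 UPM (-1.08), and Pfkfb3, which makes the activator of phosphofructokinase, at 10.9 and 4.77 (-1.19). The abundant enzymes of the later steps were lower by less than 2-fold. Aldoa, aldolase, was at 2222 and 1199 UPM (-0.89), and Tpi1, triose phosphate isomerase, at 1290.1 and 714 (-0.85). Ldha, which turns pyruvate into lactate, was at 3856 and 2719 UPM (-0.50). Gapdh, often taken as a reference gene, was nearly level at 3089 and 2889 UPM (-0.10). Hk1, the hexokinase of most adult tissues, lay on the other side at 4.22 and 8.08 UPM (0.94).

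The other gene of this list past 2-fold was Pgk1, at 253 and 57.6 UPM (log2 -2.13), but its level is uncertain. In the cKO libraries it was at 151 and 811 UPM (2.42), and it has near-identical copies in the genome, whose part in the counts was not tested. Reads of cKO E9.5 had been assigned with a gene table that the other 3 libraries did not use. Without Pgk1 the 2-fold lower members are 3, all of them lower in both genotypes.

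Among genes induced by low oxygen, 4 of the 16 counted of 20 listed were 2-fold lower and 0 higher. The median was -0.38, with 11 genes below 0 and 5 above it. All 4 lower genes encode proteins of mitochondria. Fam162a was at 834 and 296 UPM (log2 -1.49), and Higd1a, a survival factor of the inner membrane, at 902 and 336 (-1.42). Bnip3, a receptor for removal of mitochondria, was at 220.1 and 89.5 UPM (-1.30), and Ak4, an adenylate kinase, at 30.3 and 14.1 (-1.10). Each was also lower between the cKO stages, Bnip3 at 177 and 74.1 UPM and Fam162a at 651 and 350.0, although Fam162a there stayed short of 2-fold (-0.89). Vegfa, the best known gene of the response, was not lower (5.56 and 7.03 UPM, log2 0.34). Ndufa4l2, a mitochondrial protein that low oxygen induces, was found by the rule for named genes and was at 84.8 and 9.17 UPM, log2 -3.21 (-3.32 to -3.09), with -2.28 between the cKO stages.

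The windows of 250 bases before the RefSeq start of these genes (build GRCm38.p6) were searched for ACGTG, the core of the site that hypoxia-inducible factors bind, on either strand. Of glycolysis genes with a window 11 of 19 held it (57.9%) and of hypoxia response genes 11 of 16 (68.8%), against 18.5% of all 27025 genes with a window and 26.9% of the 6849 counted genes with one. Genes 2-fold lower at E9.5 held it in 28 of 108 windows (25.9%) and 2-fold higher genes in 105 of 492 (21.3%), both under the share of counted genes. Because both lists hold genes chosen in part for their known response, the shares describe the lists and not the stage. The windows of Hk2 (chr6:82774455-82774704, minus strand), Bnip3 (chr7:138909507-138909756, minus strand) and Fam162a (chr16:36071562-36071811, minus strand) are shown because these lower genes hold the motif, in capitals as ACGTG or as its reverse complement CACGT. The matches start 226 and 52 bases before the start of Hk2, 108 and 107 before that of Bnip3, where the 2 strands overlap in CACGTG, and 81 before that of Fam162a.
Hk2: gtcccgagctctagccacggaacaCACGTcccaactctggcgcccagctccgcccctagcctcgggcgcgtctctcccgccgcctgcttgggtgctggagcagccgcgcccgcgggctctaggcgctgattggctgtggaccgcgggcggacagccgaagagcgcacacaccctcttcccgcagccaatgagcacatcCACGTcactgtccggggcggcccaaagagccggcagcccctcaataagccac
Bnip3: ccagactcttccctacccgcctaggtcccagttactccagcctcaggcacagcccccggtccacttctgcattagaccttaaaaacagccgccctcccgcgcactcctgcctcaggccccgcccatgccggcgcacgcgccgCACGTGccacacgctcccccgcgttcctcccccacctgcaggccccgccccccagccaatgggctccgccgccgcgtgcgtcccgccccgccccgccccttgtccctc
Fam162a: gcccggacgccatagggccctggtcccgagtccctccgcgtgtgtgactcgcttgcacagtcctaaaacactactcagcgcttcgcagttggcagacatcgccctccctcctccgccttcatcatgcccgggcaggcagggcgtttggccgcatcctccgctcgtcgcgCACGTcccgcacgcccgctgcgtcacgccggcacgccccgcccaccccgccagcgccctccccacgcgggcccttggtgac

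Windows of Pfkfb3, Ak4 and Pgk1 also held matches and are not shown, for Ak4 only its window 4 of 4. The windows of Higd1a and Pfkp, which were lower too, held no match, which says only that these letters are not in that stretch. A match is a description of the sequence and binding was not measured.

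The medians of both lists were below 0 in all 5 classes, to differing degrees. The median of the glycolysis list was -0.84 in mesenchyme-like, -0.74 in BrM-like, -0.56 in MLP-like, -0.29 in endothelial-like and -0.24 in aSHF/SoM-like cells. The hypoxia list gave -0.67, -0.65, -0.75, -0.52 and -0.28 in the same order. The median over all genes in those classes lay between 0.19 and 0.31, so each list median was below that of its class. Hk2 showed the same in single classes. It was at 183 and 37.0 UPM in endothelial-like, 127 and 28.9 in mesenchyme-like, 142 and 45.6 in BrM-like, 120.0 and 31.6 in MLP-like and 104 and 53.7 in aSHF/SoM-like cells, short of 2-fold in the last of these. The glucose transporter Slc2a3 was at 39.3 and 35.3 UPM over all cells (log2 -0.15), at -1.41 at the E8.5 mix, without the clusters left out, and at -1.84 between the cKO stages.

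**Figure D5:**
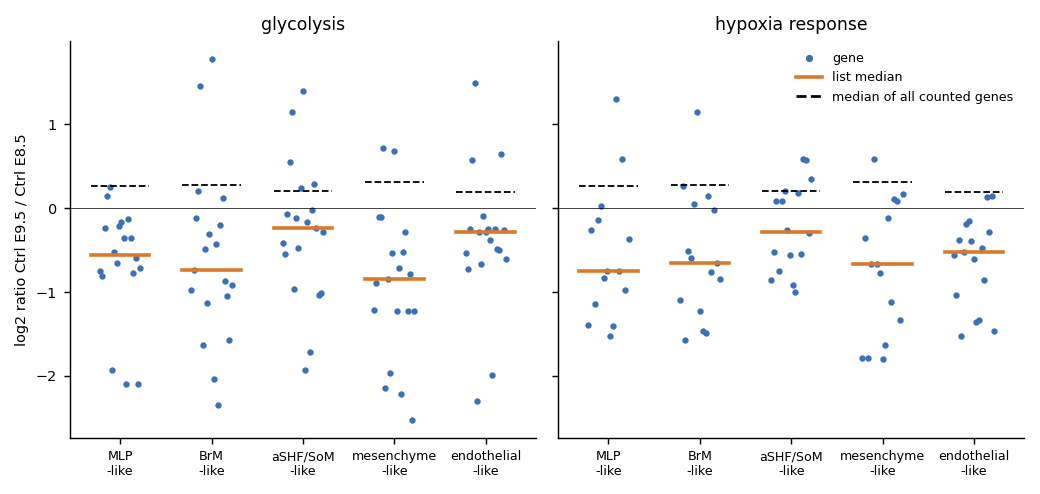
Log2 ratio of Ctrl E9.5 to Ctrl E8.5 for the counted glycolysis and hypoxia response genes (1 point a gene) within the 5 classes that had 50 or more cells at both stages, with the list median in orange and the median of all counted genes of the class as a dashed mark. The list medians run from -0.84 to -0.24 and lie below the class medians (0.19 to 0.31).

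Respiratory chain genes encoded in the nucleus and in mitochondria did not move alike. Of 55 counted nuclear genes 0 were 2-fold higher and 2 lower, with a median of -0.22, and the lower genes were Ndufv3, of complex I (403 and 180.0 UPM), and Usmg5, of ATP synthase (703 and 349.5). Of 13 mitochondrial genes 3 were 2-fold higher and 1 lower, with a median of 0.63. Mt-Atp6, for instance, was at 2014 and 5046 UPM (log2 1.33) and mt-Co2 at 804 and 1974 (1.30), while mt-Nd6, the protein gene on the other strand of that genome, was at 91.7 and 22.5 (-2.03). Between the cKO stages the medians were 0.06 for the nuclear and -0.11 for the mitochondrial genes, and mt-Nd6 was at 87.8 and 16.8 UPM. The level of mitochondrial RNA in a cell moves with dissociation and cell quality, and its part here was not tested.

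Genes of the Lin28 and let-7 axis had 14 counted members, 2 of them 2-fold lower and 0 higher, with a median of -0.08, or 0.39 below that of all genes. Lin28a was at 133 and 60.1 UPM, log2 -1.15 (-1.21 to -1.09), and -1.31 at the E8.5 mix. Hmga1, a chromatin protein of fast growing cells and a let-7 target, was at 226 and 86.7 UPM (-1.39). Its relatives in the axis were nearer to equality, with Hmga2 at -0.13, Lin28b at -0.35, Trim71, an RNA-binding ubiquitin ligase, at -0.64 and Igf2bp3 at 0.68 on the log2 scale. In cKO cells Lin28a was at 145 and 54.8 UPM and Hmga1 at 170.4 and 87.8. Sall4, a zinc finger factor of pluripotent and early embryonic cells, was at 71.0 and 29.3 UPM in Ctrl (-1.28) and at 47.1 and 25.8 in cKO cells.

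Mir17hg, the host transcript of the miR-17~92 cluster, was lower in all cells together and in every one of the 5 classes by at least 2-fold. It was at 32.6 and 8.65 UPM in Ctrl, log2 -1.91 (-2.05 to -1.77), and at 36.8 and 13.0 in the cKO libraries. The cluster is known for its part in growth of the embryo and in the outflow tract of the heart. The mature miRNAs are too short for this assay and were not measured; their main strands are given below because 4 seeds (bases 2 to 8, in capitals) cover 6 of them. The RefSeq positions in GRCm38.p6 are on chromosome 14, plus strand, the first at chr14:115043684-115043706.
mmu-miR-17-5p: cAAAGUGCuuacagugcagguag
mmu-miR-20a-5p: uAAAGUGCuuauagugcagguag
mmu-miR-18a-5p: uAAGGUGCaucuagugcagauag
mmu-miR-19a-3p: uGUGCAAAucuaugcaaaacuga
mmu-miR-19b-3p: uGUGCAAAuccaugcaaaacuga
mmu-miR-92a-3p: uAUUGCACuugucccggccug

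Among the named genes the lowest ratio was that of Ifitm1, a membrane protein of early mesoderm and germ cell precursors, at 202 and 15.5 UPM, log2 -3.71 (-3.79 to -3.62). It was -4.01 at the E8.5 mix, between -4.56 and -3.93 in the 5 classes, and 146 and 13.6 UPM in the cKO libraries. Its neighbours in the family were closer to equality, Ifitm2 at 546 and 324 UPM (-0.75) and Ifitm3 at 28.8 and 28.4 (-0.02). Mt1, a metal-binding metallothionein, was at 46.9 and 16.2 UPM (-1.53), Gchfr, which regulates biopterin synthesis, at 51.0 and 13.6 (-1.90), and Dqx1 at 45.8 and 9.45 (-2.28). The 15 genes that the rule gave on the lower side were counted in all 5 classes and 12 of them were 2-fold lower in every class, the exceptions being Etv2, Gchfr and Hk2. On the higher side 10 of 15 were counted in all 5 classes and 5 were 2-fold higher in every class.

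Several of the lower genes differed between the 2 E8.5 libraries or have close copies. Golga3, of the Golgi, was at 96.2 and 21.2 UPM in Ctrl and at 171 and 11.0 in cKO. Snhg9, a snoRNA host gene, was at 37.6 and 11.2 UPM in Ctrl and at 238 and 30.8 in cKO, so that cKO E8.5 lay 2.65 above Ctrl E8.5 on the log2 scale. Tomm6, of the mitochondrial import pore, was at 87.4 and 23.3 UPM in Ctrl and at 59.2 and 46.3 in cKO. Tomm6 is uncertain because close copies or pseudogenes are known, and how reads were divided among them was not tested. The same caution applies to Erdr1, a gene of the pseudoautosomal region (247 and 66.5 in Ctrl), to Rpl15 (log2 -1.11 in Ctrl and 1.87 in cKO) and, on the higher side, to Il11ra1, the interleukin 11 receptor (4.03 and 70.7 in Ctrl, 3.94 and 15.5 in cKO), whose mouse locus has duplicates.

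The remaining genes named on the higher side were past 2-fold over all cells and at the E8.5 mix. Maged2, of the MAGE family, was at 41.1 and 231 UPM (log2 2.49, and 2.5 at the E8.5 mix), Parm1, a mucin-like membrane protein, at 7.1 and 47.1 (2.73 and 2.79), and Cdo1, which breaks down cysteine, at 12.4 and 67.6 (2.44 and 2.48). Gap43, a protein of growth cones, was at 16.5 and 87.2 UPM (2.41 and 2.31), Limch1, a regulator of non-muscle myosin, at 7.73 and 41.7 (2.43 and 1.94), and Plpp3, a lipid phosphatase of the cell surface, at 31.5 and 153 (2.28 and 2.41). All 6 were higher at E9.5 between the cKO libraries too, by 1.39 (Plpp3) to 2.89 (Parm1) on the log2 scale. Within the 5 Ctrl classes, only Maged2 of these 6 was 2-fold higher in each. Plpp3 ranged over the classes from -0.09 to 2.77, and Parm1 was counted in only 3 of them. The lowest class ratios of Limch1, Gap43 and Cdo1 were 0.46, 0.58 and 0.59.

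Cell cycle genes were slightly above the median of all genes. Of 41 S phase genes 2 (4.88%) were 2-fold higher and 0 lower (median 0.50), and of 52 G2 and M phase genes 1 (1.92%) was higher and 0 lower (median 0.42). Both shares of higher genes were under the 7.39% of all counted genes. Between the cKO stages the medians were -0.05 and 0.13, against 0.01 for all genes. The genes past 2-fold in Ctrl were Dscc1 and Rrm1, of DNA replication and nucleotide supply, at 9.15 and 22.8 and at 52.6 and 107 UPM, and the mitotic cyclin Ccnb2 at 65.0 and 134. Cdkn1c, the imprinted inhibitor of cyclin-dependent kinases, was at 124 and 355 UPM (log2 1.51). Of 23 counted imprinted genes 4 were 2-fold higher and 1 lower, with Gnas, a G protein subunit, at 617 and 1383 UPM (1.16) and Phlda2, which restrains placental growth, at 26.8 and 9.65 (-1.47). Igf2, a fetal growth factor, was at 158 and 269 UPM in Ctrl but at 263 and 9.26 in the cKO libraries, the second of which had been counted on the other gene table.

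Cytosolic ribosomal protein genes were lower in sum, from 300000 to 246000 UPM, with 81 counted, 1 higher, 4 lower and a median of -0.21. They take such a part of all UMIs that their lower share alone raises the UPM of other genes, and with ribosomal, mitochondrial and globin genes taken out of the total the median of all counted genes was 0.21. Between the cKO stages the ribosomal median was 0.11. Whether cells at E9.5 held less ribosomal protein RNA or the libraries captured it unequally was not tested.

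Within classes the comparison was made between cells given the same name at both stages. The share of counted genes that was 2-fold higher was 12.5% in MLP-like, 9.04% in BrM-like, 8.59% in aSHF/SoM-like, 9.32% in mesenchyme-like and 11.1% in endothelial-like cells, and the share 2-fold lower was 2.56%, 2.89%, 2.2%, 2.38% and 3.5% in that order. MLP-like cells, of which there were 100 and 122, had several of their own markers within 2-fold at both stages, Aplnr, the apelin receptor, at 137 and 160 UPM, Nrg1, the neuregulin ligand, at 53.1 and 82.4, and Isl1 at 103 and 159. Rdh10, which makes retinal for retinoic acid synthesis, was past 2-fold among these markers (59.1 and 157 UPM, log2 1.41). These genes were among the markers that named the class, so similar levels at both stages are partly built in. The remaining markers of the class are not given here. Other genes in MLP-like cells were further apart: Dlk1, an imprinted Notch-like inhibitor of differentiation, was at 40.3 and 185 UPM and Cdkn1c at 130 and 653. Hoxa3 was at 7.74 and 26.6 UPM in these cells and Hoxb1, of the posterior second heart field, at 78.5 and 65.1.

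In aSHF/SoM-like cells Isl1 was at 114 and 217 UPM, Mef2c, a cardiac MADS-box factor, at 134 and 237, and Dlk1 at 375 and 872. Mesenchyme-like cells, the largest class, had Col3a1 at 30 and 356 UPM, Cxcl12 at 33.5 and 244, Nr2f1 at 9.66 and 105, and Sfrp1 at 94.1 and 385. The clusters of this class did not keep their proportions, with 83 and 575 cells in the one led by Nbl1 and Lum, 36 and 293 in the one led by Meox1 and Hoxa2, and 83 and 164 in the one led by Tcf15 and Meox1, and differences between and within clusters cannot be told apart. Of the matrix list 17 of 28 counted genes were 2-fold higher and 1 lower in mesenchyme-like cells (median 1.15), against 5 higher and 2 lower of 21 in endothelial-like cells (median 0.19). In endothelial-like cells 19 of the 31 counted endothelial genes were 2-fold higher and 2 lower. Cldn5 was at 97.9 and 770.0 UPM there and Cdh5 at 38.0 and 206. The surface proteins Emcn and Cd34 were at 122 and 414 and at 32.9 and 292 UPM. Aplnr, a marker of the MLP-like class that vessels also use, was at 40.3 and 234 UPM in endothelial-like cells. Since the Cldn5 and Emcn cluster made up most endothelial-like cells only at E9.5, differences between clusters and within them cannot be told apart in these values. Some of the genes given here were among the markers that named their class, so their levels in it are partly built in. They are Isl1, Mef2c and Dlk1 for aSHF/SoM-like, Col3a1 for mesenchyme-like, and Cldn5, Cdh5 and Emcn for endothelial-like cells.

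Side by side, the cKO stages gave 328 of 8709 counted genes (3.77%) 2-fold higher and 290 (3.33%) 2-fold lower, around a median of 0.01. Of the 656 genes higher between the Ctrl stages 550 were counted in cKO and 150 of those (27.3%) were 2-fold higher there, which is 45.7% of the 328. Another 5 were 2-fold lower. Of the 150 lower genes 139 were counted in cKO and 71 (51.1%) were 2-fold lower there, which is 24.5% of the 290, while 4 were 2-fold higher. The 2 comparisons share no library.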

How the data were processed

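The authors made droplet 3′ libraries of sorted cells and deposited filtered matrices of UMI counts per gene and barcode, not normalized, aligned to mouse mm10. The submitters' notes name Cell Ranger 3.1.0, the headers of both E8.5 matrices 3.0.2. Ctrl tables listed 27998 genes. cKO E9.5 was counted on another table of 31053 genes, of which 27514 were shared by Ensembl ID, and 3539 of its genes were left out. The members and gene lists were chosen with earlier results of these data known.

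From the counts, barcodes with 1000 or more genes and at most 10% mitochondrial UMIs were kept (depth 25341821 to 104748351 UMIs a library), summed and scaled to 1000000. No doublet caller was run and doublets were not removed. Replicates do not exist, so intervals (exact conditional binomial for ratios, Wilson for class shares, exact binomial for shares of positive cells, all 95%) cover counting error only. Shares of cells with a UMI used cells thinned to 5000 UMIs, which left out 30 and 28 shallower cells. Clusters came from Seurat 5.3.0 (RPCA, 30 components, resolution 1, R 4.3.3). A cluster could take the name of a class with 3 or more of its markers (99 over all classes) 1.5-fold above the other cells (10 UPM added, 20 or more UMIs). Any marker of that class also had to be among the 10 leading genes of the cluster. The class with most markers among those 10 gave the name, and ties were left unnamed. This rule was set after the clusters were seen. Named genes were the 15 each way (10 at the E8.5 mix) with a mean of 20 UPM or more whose interval bound nearest 0 lay farthest from 0, leaving out mitochondrial, ribosomal, histone, globin, sex-linked and unnamed genes; 2 of the 15 lower genes are not reported here. Genes of the 36 lists are given by counts, with those past 2-fold and well known members as examples. Other tools were Python 3.11.15, numpy 2.4.6, scipy 1.17.1, pandas 2.3.3 and edgeR 4.0.16 for TMM factors. Alternatives were scalings, filters, thinning, clustering resolution and weighting of cells. The ratio script was tested on simulated data.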

Additional observations from a re-analysis of the deposited data

Results flagged for a closer look

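A value is listed here where the Ctrl and the cKO stages moved in opposite directions. With 1 library a group the difference was not tested, and cKO E9.5 was counted on another gene table. Among single genes, Pgk1 was -2.13 in Ctrl and 2.42 in cKO on the log2 scale and Myl7 0.06 and -0.68. Pgk1 has near-identical copies, and the Myl7 value in Ctrl was near 0 and lies below it under TMM scaling. Among list medians, endothelial genes were at 0.81 in Ctrl and -1.03 in cKO, heart field regulators at 0.31 and -0.70, sarcomere and contractile genes at 0.30 and -0.41, and basement membrane genes at 0.46 and -0.45. Red cell genes were at 6.16 over 6 counted genes in Ctrl and at -0.66 over only 2 in cKO. Those 2 medians therefore cover different genes, and their opposite signs do not compare like with like. Sex-linked genes were at 0.64 (5 counted genes) and -1.65 (4). The medians of all genes were 0.31 and 0.01, and under TMM scaling the Ctrl medians of heart field and contractile genes were about 0.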

How the results depend on the processing

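Counts of genes past 2-fold depended on scaling and on the filter. The 656 higher and 150 lower genes became 274 and 319 under TMM scaling, 256 and 328 under median-of-ratios scaling, 1457 and 268 with a mean of 1 UPM, 214 and 87 with a mean of 20 UPM, and 5513 and 1312 with no filter. Asking that the whole interval lie past 2-fold left 383 higher and 118 lower. Each of these follows from how the alternative is built, since it shifts all ratios alike or admits more or fewer genes. All deposited barcodes, 2000 or more genes a cell, equal weight for each cell, thinned cells, the E8.5 mix (563 and 169, with the minimum of 5 UPM taken at that mix, against 585 and 179 over the 8878 genes) and a total without ribosomal, mitochondrial and globin genes (626 and 204) stayed within 1.5 times. No named gene past 2-fold and no list median past 2-fold changed sign under any scaling or filter. Class shares moved with the clustering: the aSHF/SoM-like difference went from -0.964 to -5.58 points at resolution 0.5, where no MLP-like class was found, and at resolution 2 the mesenchyme-like difference went from 2.5 to 9.43 and the unnamed one from -7.65 to -14.8. The cause was not tested. Shares of cells with a UMI moved with depth. Without thinning the difference went from 11.7 to 14.5 points for Epcam, 2.82 to 4.36 for Cdh5, -13.2 to -26.3 for Etv2, -3.58 to -12.7 for Tnnt2 and 0.24 to -2.36 for Tubb3. With 2 or more UMIs required it was 8.04 for Epcam, -5.62 for Etv2 and 0.46 for Tnnt2, so the directions for Tnnt2 and Tubb3 rest on the setting. No paired analysis was possible because each group has 1 library, and leaving out a library leaves no comparison. Stage, dissection and library cannot be told apart.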
